A study of Homo sapiens with 5 samples.

Results

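Phospholipases A2 and extracellular lipases cut fatty acids from phospholipids and lipoprotein lipids, and 10 genes of this group were looked for in HepG2 cells depleted of LSD2. A gene was counted as measured where at least 1 probe set of the array carried its symbol and no other. On that rule 5 of the 10 had values, out of 12893 genes in all: PLA2G12A, PLA2G12B, PLA2G6, PLA2G15 and LIPG, through 10 of the 30137 probe sets. PLA2G2A, PLA2G4A, PLA2G4C, PLA2G7 and LIPC were not analysed here. HepG2 is an established human liver carcinoma line, here grown with 25 mM glucose and 10% serum. The knockdown group had 3 arrays, each of cells given a different siRNA against LSD2 (siRNAs 1, 2 and 3), and the control group had 2 arrays of cells given an siRNA against GL3, a luciferase sequence. All cells received lipofection reagent at roughly 50% confluence and were harvested 3 to 4 days later. Control array 2 is labelled as a technical repeat of control array 1, so both were averaged to 1 control sample. Each siRNA had 1 array, so the spread among the knockdown arrays mixes differences between siRNAs with variation between cultures and arrays. Unless another fit is named, a p-value rests on that spread, drawn by limma toward the spread shared by all genes, and not on the control gap. Part of the spread may be technical.

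Phospholipases A2 release a fatty acid, often arachidonate, from the middle position of a phospholipid and leave a lysophospholipid. The secreted enzymes act outside the cell or in the secretory pathway, PLA2G6 acts inside the cell without calcium, and PLA2G15 acts in lysosomes. Hepatic lipase (LIPC) and endothelial lipase (LIPG) are secreted and act on lipoproteins in plasma. In the liver these enzymes bear on membrane turnover, lipoprotein secretion and the supply of precursors for eicosanoids.

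The values lacked the level of a gene, because each probe set had been centred on the median of its 5 arrays. A value of 0 is therefore that probe set's middle array, and no member can be called more abundant than another. For the same reason the presence of hepatocyte markers could not be read. Values and differences are on the log2 scale, with base 2 assumed. The targeted transcript KDM1B, which encodes LSD2, differed from the control mean by -2.60, -1.73 and -1.38 under siRNAs 1, 2 and 3. KDM1B itself did not pass the limma test over all genes (adjusted p = 0.9999, unadjusted p of 0.0236). A gene that was not called here is therefore not shown to be unchanged. The spiked poly-A controls put control array 1 with siRNAs 1 and 2, and control array 2 with siRNA 3. Over 24 of those probe sets the medians against control array 1 were 0.04, 0.07 and -1.39 for siRNAs 1, 2 and 3 and -1.45 for control array 2. The number of arrays limits the precision of every value. In these bulk samples fewer cells that express a gene and less RNA per cell cannot be told apart.

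PLA2G12A and PLA2G12B encode the group XII secreted phospholipases A2, and their upstream sequences are shown because the pair differed in its values, as described next. PLA2G12A encodes a catalytically active enzyme. The PLA2G12B product lacks the catalytic histidine and is known for its part in loading triglyceride onto nascent lipoproteins in the endoplasmic reticulum, and its gene is a known target of the liver factor HNF4A. The letters are the 250 bases before the start site in RefSeq, build GRCh38.p14, read 5′ to 3′ on the minus strand, with motif matches in capitals.
PLA2G12A, chr4:109730071-109730320: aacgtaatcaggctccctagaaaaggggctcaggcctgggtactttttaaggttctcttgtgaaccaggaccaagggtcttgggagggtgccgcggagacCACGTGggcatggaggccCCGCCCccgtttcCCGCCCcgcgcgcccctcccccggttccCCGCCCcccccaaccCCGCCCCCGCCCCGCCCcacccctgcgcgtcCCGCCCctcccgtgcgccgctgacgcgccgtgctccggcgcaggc
PLA2G12B, chr10:72954807-72955056: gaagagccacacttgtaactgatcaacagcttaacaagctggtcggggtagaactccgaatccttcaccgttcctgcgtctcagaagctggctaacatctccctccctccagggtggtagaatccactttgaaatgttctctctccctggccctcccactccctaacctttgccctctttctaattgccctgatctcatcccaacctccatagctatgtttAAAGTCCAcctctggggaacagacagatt

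The motifs were chosen with these letters in view and were searched on both strands: the TATA box TATAAA, the CCAAT box CCAAT, the GC box GGGCGG, the E-box CACGTG and the letters AAAGTCCA from the end of an HNF4A motif. The PLA2G12A stretch had 72.8% G and C, 26 CpG dinucleotides, 7 GC box matches, of which some overlap, and 1 E-box match. The PLA2G12B stretch had 50.4% G and C, 4 CpG dinucleotides and 1 match to the HNF4A letters, from 29 to 22 bases before the start site. Over 35116 promoter stretches of that length the medians were 58% G and C and 11 CpG dinucleotides. A match to the GC box stood in 42.6% of them, to the E-box in 6.3%, to the HNF4A letters in 1.0%, to the CCAAT box in 32.0% and to the TATA box in 10.7%. The upstream stretches of PLA2G6, PLA2G15 and LIPG held 22, 29 and 18 CpG dinucleotides and 3, 2 and 1 matches to the CCAAT box. PLA2G6 also held 1 E-box match, from 17 to 12 bases before its start site. A match describes letters and does not show that a factor binds there.

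PLA2G12B was the only one of the 5 measured members above the control mean under all 3 siRNAs. Its first probe set (224411_at) read -0.23 and -0.57 on control arrays 1 and 2 and 0.00, 0.46 and 1.40 under siRNAs 1, 2 and 3. The second (231009_at) read -0.70 and -0.67 on the controls, then 0.00, 0.55 and 1.29 under the siRNAs. In both probe sets every knockdown array lay above both control arrays, and the arrays of siRNAs 1, 2 and 3 stood in that order from low to high. The mean of both probe sets was 0.54, 1.05 and 1.88 above the control mean under siRNAs 1, 2 and 3, or 1.45, 2.06 and 3.69 times the control. The mean difference was 1.16 ± 0.68 (SD, n = 3 siRNAs), against a gap of -0.15 between control array 2 and control array 1. The difference did not pass the test, with a limma standard error of 0.62, a 95% interval from -0.44 to 2.75, an adjusted p = 0.9999 over all genes and an unadjusted p of 0.122.

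Because every knockdown array of PLA2G12B lay above both controls, leaving out 1 array or using 1 control array could not turn its sign. Such comparisons describe only the size of the difference. Against the control array of the same poly-A batch PLA2G12B stood at 0.46, 0.97 and 1.96 under siRNAs 1, 2 and 3. A limma fit that blocked on this batch gave a difference of 1.25 (adjusted p = 0.993, unadjusted p of 0.0320). It counted control array 2, labelled a technical repeat, as a separate sample, so its p-values may be too small. Leaving out 1 array at a time gave differences from 0.79, without siRNA 3, to 1.46, without siRNA 1. Of all 12893 genes 3.15% had a higher mean difference, and 3.23% were higher than PLA2G12B by the weakest of the 3 siRNAs. By the mean of its 2 probe sets KDM1B stood in the opposite order over the siRNAs: its loss was deepest under siRNA 1, where PLA2G12B was nearest to the control, and shallowest under siRNA 3, where PLA2G12B was highest. The KDM1B probe set 227021_at held that order, at -3.95, -2.94 and -1.82 from the control mean. The other, 1553150_at, did not, at -1.25, -0.52 and -0.95, and with 3 siRNAs the order was not tested.

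**Figure D1:**
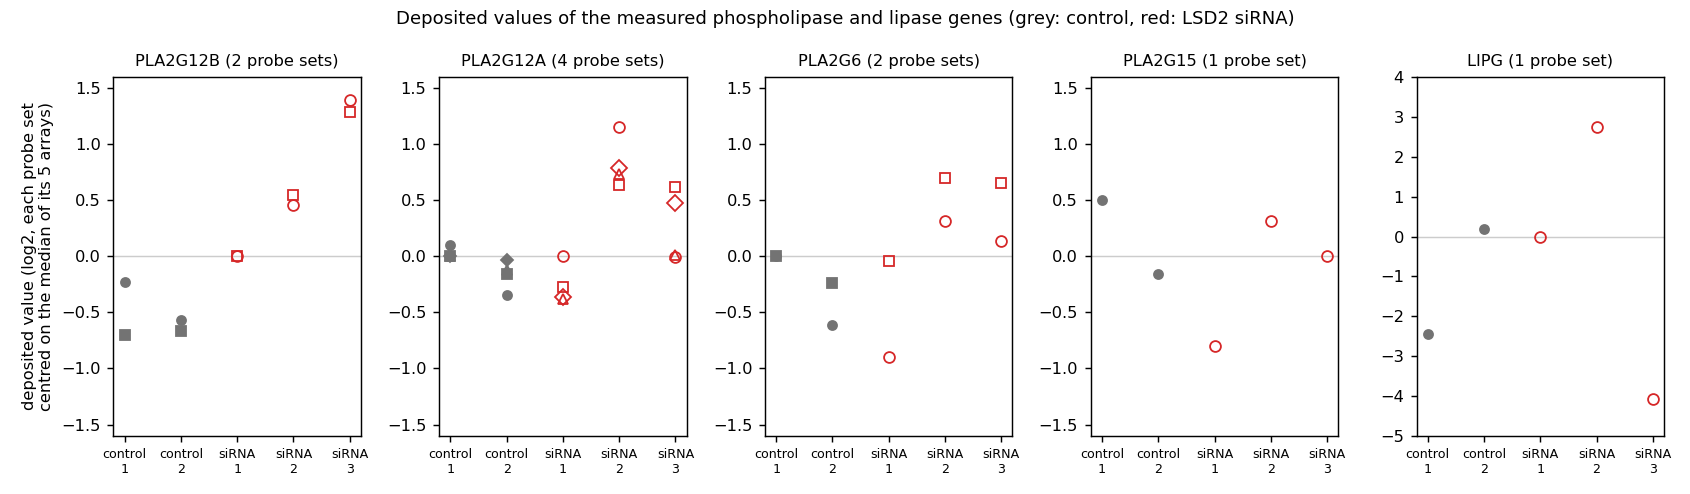
Deposited log2 values (vertical axis) of every probe set of the 5 measured genes on the 5 arrays (horizontal axis), with grey filled symbols for control arrays, red open symbols for LSD2 siRNA arrays and 1 symbol shape per probe set of a gene. In PLA2G12B both probe sets read above both controls under each siRNA, while LIPG, on a wider axis, ran from -4.09 to 2.75.

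PLA2G12A differed in sign between the siRNAs. Averaged over its 4 probe sets it read 0.03 and -0.16 on control arrays 1 and 2 and -0.25, 0.83 and 0.28 under siRNAs 1, 2 and 3. The knockdown arrays lay on both sides of the controls, with siRNA 1 below both and siRNAs 2 and 3 above both. In each of the 4 probe sets the array of siRNA 2 was the highest of the 5, with values of 1.16 (221027_s_at), 0.63 (223373_s_at), 0.73 (228084_at) and 0.78 (242323_at). The array of siRNA 3 divided the probe sets, with 0.62 and 0.48 in 223373_s_at and 242323_at and -0.01 and 0.01 in 221027_s_at and 228084_at. The differences from the control mean were -0.18, 0.90 and 0.34, with a mean of 0.35 ± 0.54 (SD, n = 3 siRNAs) and a limma adjusted p = 0.9999. Without siRNA 2 the mean was 0.08 and without siRNA 1 it was 0.62, so its size rested on single arrays.

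PLA2G6 encodes the calcium-independent phospholipase A2 that takes part in membrane remodelling, and mutations in it cause a neurodegenerative disease with axonal dystrophy. Its probe set 204691_x_at read 0.00 and -0.61 on control arrays 1 and 2 and -0.90, 0.32 and 0.14 under siRNAs 1, 2 and 3. Its other probe set, 210647_x_at, read 0.00 and -0.24 on the controls, then -0.04, 0.70 and 0.66 under the siRNAs. In both, siRNAs 2 and 3 were above both controls, while siRNA 1 was below both in the first probe set and between them in the second. The suffix of these probe sets marks probes that can match other sequences too, and PLA2G6 had no probe set without it. The mean difference was 0.36 ± 0.54 (SD, n = 3 siRNAs), from -0.25, 0.72 and 0.61, with a limma adjusted p = 0.9999. The probe sets taken singly gave 0.16 and 0.56. Leaving out 1 array at a time gave means from 0.15, without control array 2, to 0.67, without siRNA 1.

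PLA2G15, the lysosomal phospholipase A2, had 1 probe set (204458_at) and the only mean below the control. It read 0.51 and -0.16 on control arrays 1 and 2 and -0.80, 0.31 and 0.00 under siRNAs 1, 2 and 3. Only siRNA 1 lay outside the range of the control arrays, and it lay below. The mean difference was -0.34 ± 0.57 (SD, n = 3 siRNAs), with a control gap of -0.66 and a limma adjusted p = 0.9999. It came to -0.02 without siRNA 1 and to -0.0028 without control array 1, so that the value depended on those arrays.

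LIPG, the endothelial lipase gene whose product hydrolyses phospholipids of high density lipoproteins, had 1 probe set (219181_at) and the widest spread of the members. It read -2.45 and 0.18 on control arrays 1 and 2 and 0.00, 2.75 and -4.09 under siRNAs 1, 2 and 3. The knockdown arrays held both the highest and the lowest of the 5 values, and the control arrays were 2.62 apart. The differences from the control mean were 1.14, 3.89 and -2.95, with a mean of 0.69 ± 3.44 (SD, n = 3 siRNAs), a 95% interval from -5.85 to 7.23 and a limma adjusted p = 0.9999. The mean turned to -0.91 without siRNA 2 and to -0.62 without control array 1, and it was 2.51 without siRNA 3. Against the control array of the same batch LIPG stood at 2.45, 5.20 and -4.26 under siRNAs 1, 2 and 3. The arrays of siRNAs 2 and 3 were in different batches, each with 1 control array, and the part of batch in their difference was not tested. Of all genes 0.0776% had a wider spread over the siRNAs and 1.93% a wider gap between the control arrays. The signal of this probe set over background was not in the values.

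**Figure D2:**
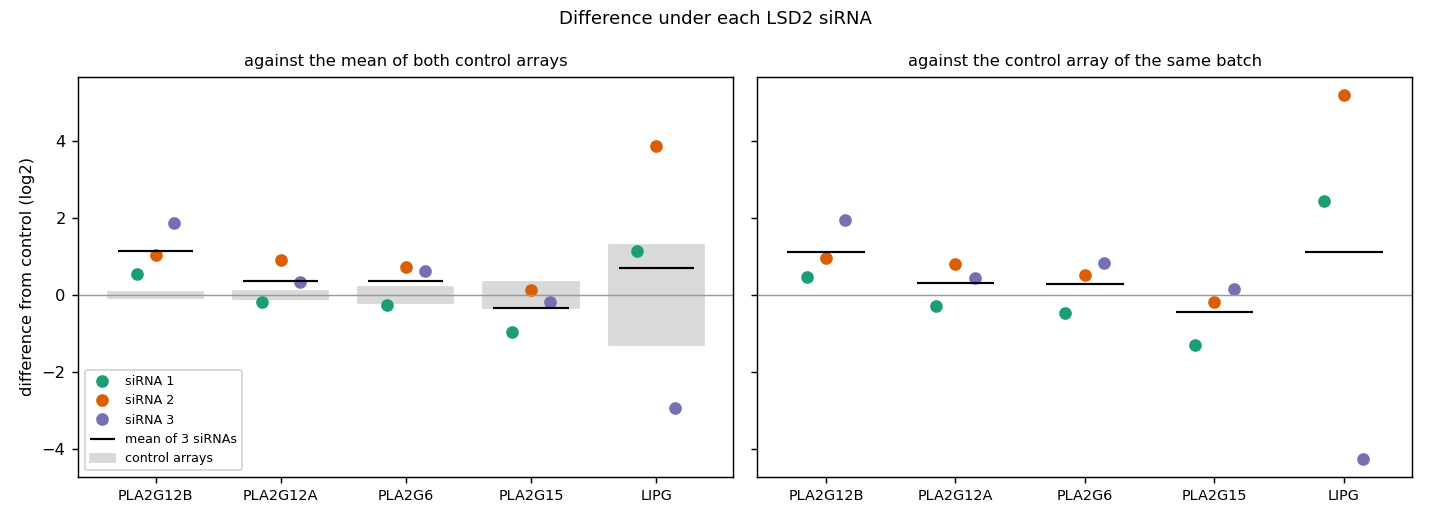
Difference from control (log2, vertical axis) of the 5 measured genes (horizontal axis) under siRNAs 1, 2 and 3 (coloured points) with their mean (black line), against the mean of both control arrays on the left and the control array of the same batch on the right. Grey boxes span the 2 control arrays, and in both panels the 3 points of PLA2G12B lie above 0.

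**Figure D3:**
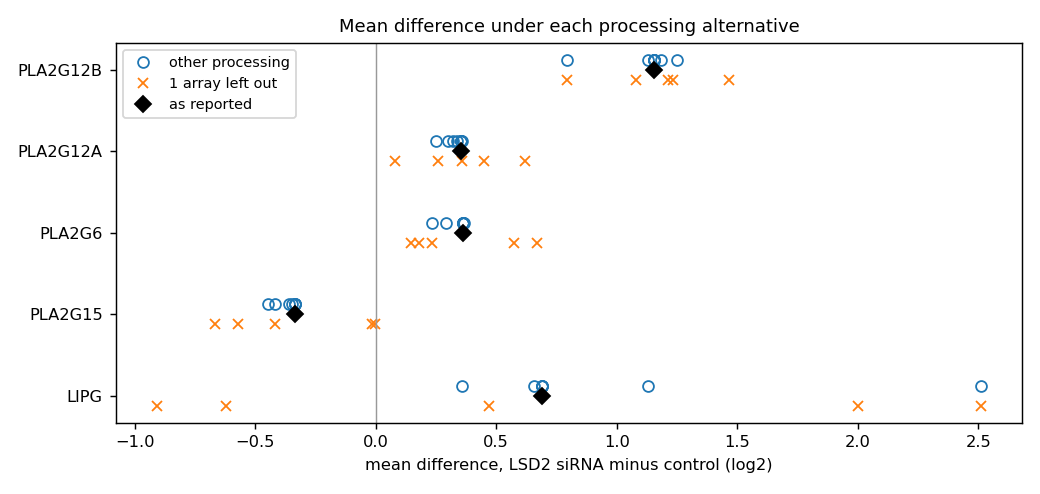
Mean difference between LSD2 siRNA and control (log2, horizontal axis) of the 5 measured genes, with the reported value as a black diamond, fits that leave out 1 array as orange crosses and other processing as blue open circles. PLA2G12B stays between 0.79 and 1.46, PLA2G15 reaches -0.0028, and LIPG lies on both sides of 0.

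Each count over the members was set beside its share over all genes. Limma called 0 of the 5 members and 0 of the 12893 genes (0%) at an adjusted p below 0.05. An unadjusted p below 0.05 was found for 0 members and 218 genes (1.69%). Above the control mean under all 3 siRNAs were 1 of the 5 members and 17.9% of all genes, and below it 0 members and 18.2%. All 3 knockdown arrays were above both control arrays in 1 member, PLA2G12B, and in 8.63% of genes. Against the control array of the batch 1 member and 15.4% of genes were higher under all 3 siRNAs. The pattern with siRNA 1 below and siRNAs 2 and 3 above the control mean was held by PLA2G12A and PLA2G6, 2 of the 5, and by 12.8% of genes. The range over the siRNAs was wider than the gap between the control arrays in 5 of the 5 members and in 79.3% of genes. A range over 3 arrays tends to exceed a gap between 2, and the control arrays are technical repeats. This count therefore does not compare siRNA variation with variation between control cultures. The median difference of the members was 0.36, with -0.18, 0.90 and 0.34 under siRNAs 1, 2 and 3, and over all genes it was -0.02, with -0.04, 0.03 and 0.01.

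Among other phospholipase A2 and platelet-activating factor hydrolase genes, 14 of 28 listed symbols were measured. Of these 5 were above the control mean under all 3 siRNAs and 0 below, beside 17.9% and 18.2% of all genes. Against the control array of the batch, PLA2G4F and PAFAH2 fell to -0.18 and -0.16 under siRNA 2, while the rest of the 5 stayed above it. The 14 had a median of 0.16, and limma called 0. PNPLA6, a lysophospholipase of the endoplasmic reticulum, read 0.00 and -0.95 on control arrays 1 and 2 and 0.88, 0.39 and -0.13 under siRNAs 1, 2 and 3. Its difference from the control mean was 0.85 ± 0.51 (SD, n = 3 siRNAs), and siRNA 3 lay between its control arrays. PNPLA8, a calcium-independent phospholipase of mitochondria and peroxisomes, stood at 0.40, 0.95 and 0.21 above the control mean.

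Other lipases and the genes that control extracellular lipases included 17 measured of 27. Of these 7 were above the control mean under all 3 siRNAs and 0 below, beside 17.9% and 18.2% of all genes. The 17 had a median of 0.46, with 0.47, 0.74 and 0.33 under siRNAs 1, 2 and 3. Within batches the medians were -0.16, 0.55 and 0.81, and limma called 0. Of the 7, LMF2, PCSK6, SCARB1 and SDC1 had control array 2 far below control array 1, with gaps of -1.64, -0.99, -1.48 and -0.97. In LMF2 and PCSK6 every knockdown array lay below control array 1, and in SCARB1 and SDC1 some did. APOC3, an apolipoprotein that inhibits lipoprotein lipase and hepatic lipase, read -0.31 and -0.86 on the controls, then 0.00, 0.72 and 2.09 under siRNAs 1, 2 and 3. APOA5, an apolipoprotein that favours lipolysis of triglyceride-rich particles, read -0.51 and -1.21 on the controls, then 0.00, 0.16 and 0.80 under the siRNAs. In both genes, as in PLA2G12B, every knockdown array was above both control arrays and the siRNAs stood in the order 1, 2, 3. Both were named for a high value under their weakest siRNA, which favours genes above the controls. The order was not counted over all genes, and a link to PLA2G12B was not tested. The differences from control were 1.52 ± 1.06 for APOC3 and 1.18 ± 0.42 for APOA5 (SD, n = 3 siRNAs), each with a limma adjusted p = 0.9999.

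Genes of lysophospholipid reacylation and breakdown, which use or remove the other product of phospholipase A2, had 17 of 21 measured. Of these 4 were above the control mean under all 3 siRNAs and 3 below, beside 17.9% and 18.2% of all genes. Against the control array of the batch, MBOAT7 fell to -0.09 under siRNA 2, while the rest of the 4 stayed above it. The 17 had a median of -0.03, and limma called 0. ENPP2, or autotaxin, the secreted enzyme that turns lysophosphatidylcholine into lysophosphatidic acid, read -0.34 and -0.23 on the controls, then 0.00, 1.72 and 1.26 under siRNAs 1, 2 and 3. It thus lay above both controls throughout, at 1.28 ± 0.89 (SD, n = 3 siRNAs). LPCAT3, which puts polyunsaturated chains back on lysophospholipids, stood at 0.24, 0.54 and 0.22 above the control mean. TMEM86A, a lysoplasmalogenase gene, stood at -0.75, -0.20 and -1.42, and LPCAT2, an acyltransferase of platelet-activating factor synthesis, at -0.13, -0.46 and -0.70. Against the control array of its batch LPCAT2 read 0.20 under siRNA 1.

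In the arachidonate and eicosanoid pathway 21 of 38 genes were measured, with a median of 0.08. Of these 8 were above the control mean under all 3 siRNAs and 2 below, beside 17.9% and 18.2% of all genes. Against the control array of the batch, HPGD and PTGES2 fell to -0.01 and -0.32 under siRNA 1 and PTGR2 to -0.12 under siRNA 3. The rest of the 8 stayed above it. Limma called 0 of the 21, and 1 of them, beside 1.69% of all genes, had an unadjusted p under 0.05. That gene was PTGER3, a receptor for prostaglandin E2, with 1 probe set. It read -1.90 and -2.61 on the controls and stood 2.25, 3.25 and 2.86 above their mean under siRNAs 1, 2 and 3. Every knockdown array was above both controls, and the difference was 2.79 ± 0.50 (SD, n = 3 siRNAs; limma adjusted p = 0.9999, unadjusted p of 0.00319). PTGR1, a reductase that inactivates prostaglandins and leukotriene B4, stood at 1.33, 0.76 and 1.12 above the control mean, or 1.07 ± 0.29 (SD, n = 3 siRNAs). The lower genes were MGLL, the monoacylglycerol lipase gene, at -1.24, -0.37 and -0.92, and PTGS1, the constitutive cyclooxygenase gene, at -0.55, -0.23 and -0.66. For PTGS1 the control arrays were 0.90 and 0.00, and siRNA 2 lay between them.

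Among kinases, annexins and transcription factors that act on phospholipases A2 or their genes, 15 of 17 were measured. Of these 7 were above the control mean under all 3 siRNAs and 1 below, beside 17.9% and 18.2% of all genes. Against the control array of the batch, CAMK2G fell to -0.12 under siRNA 1, while the rest of the 7 stayed above it. The 15 had a median of 0.18, and limma called 0. STAT3, which carries interleukin-6 signals to acute phase genes, was 0.85, 0.65 and 0.48 above the control mean under siRNAs 1, 2 and 3, and its controls read -0.31 and -0.38. PRKCA, a protein kinase C gene, was 0.53, 0.62 and 0.41 above it, and its controls read -0.21 and -0.27. For both genes every knockdown array was above both controls. NFKB1, a subunit gene of the inflammatory factor NF-kappaB, stood at -0.58, -0.73 and -0.05.

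Markers of other cell types were few in the table, and their levels were not in the values. Of 8 macrophage markers 4 were measured, with medians of 0.67, 0.98 and -0.13 under siRNAs 1, 2 and 3, and 1 was above the control mean under all 3. Of 6 fibroblast markers 4 were measured, with medians of 0.78, 0.08 and -1.16, and of 5 endothelial markers only 1. The 9 measured of 11 hepatocyte markers had medians of -0.41, 0.60 and 0.61 under siRNAs 1, 2 and 3. Their signs under siRNAs 1, 2 and 3 were those of PLA2G12A and PLA2G6, and their part in the members' values was not tested.

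**Figure D4:**
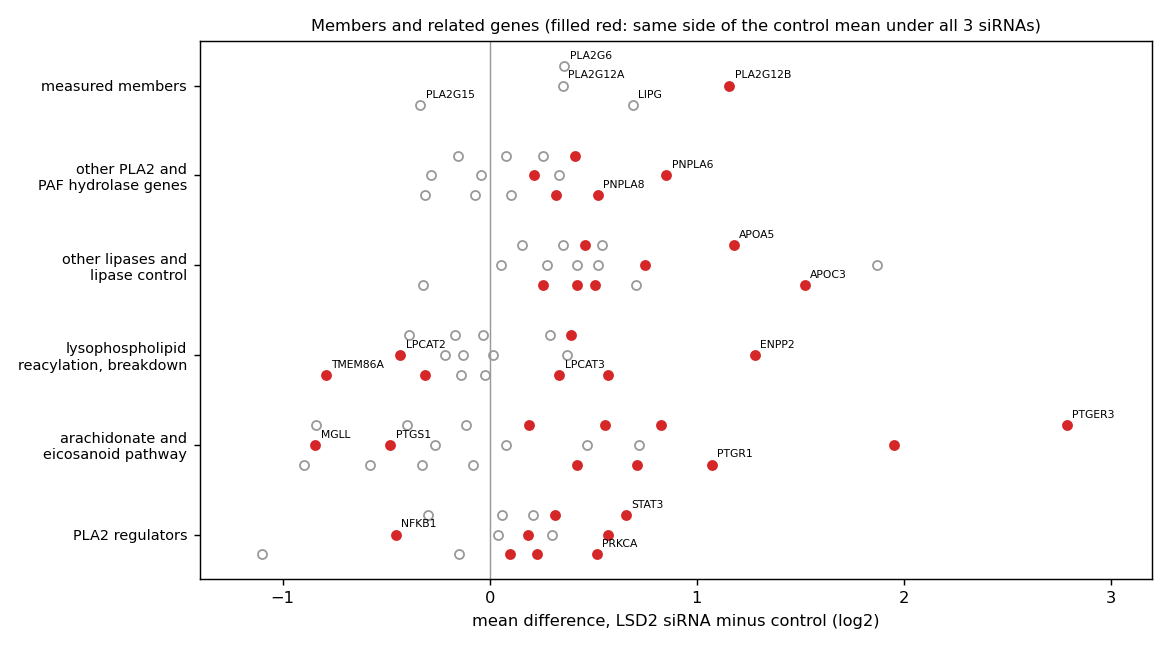
Mean difference between LSD2 siRNA and control (log2, horizontal axis) of the 5 measured members and of each measured gene in 5 lists of related genes, 1 row per list, with filled red points for genes on 1 side of the control mean under all 3 siRNAs and open points for the others. PLA2G12B at 1.16 lies beside APOA5 at 1.18, and PTGER3 at 2.79 lies farthest to the right.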

How the data were processed

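MAS5 is the summary method that the submitters' processing notes name. The deposited numbers were taken to be log2 values, and each of the 30137 probe sets has a median of 0 over its 5 arrays. The base, scaling and filter on probe sets are not given in the sources used here. The platform's annotation gave 24151 probe sets 1 symbol, and a gene is the mean of its probe sets. Sequences came from RefSeq's promoter table, where 5 of the 5 measured members matched.

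Genes were tested with limma 3.58.1 under R 4.3.3 (lmFit, then eBayes; two-sided), as 3 siRNAs against 1 averaged control with 2 residual degrees of freedom. That single control is taken to vary as the knockdowns do. P-values were adjusted by Benjamini-Hochberg over all genes, with a threshold of 0.05. The fit was tested on simulated data. Plots used pandas 2.3.3 and matplotlib 3.10.9. Alternatives changed the normalization, the block, the probe sets, the genes kept, the variance model or the arrays.

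The members and the lists of related genes were chosen with earlier results of these data known. Named were all measured members, KDM1B and, per list, up to 2 genes highest and 2 lowest by the weakest siRNA among those on 1 side of the control under all 3.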

Additional observations from a re-analysis of the deposited data

How the results depend on the processing

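The signs of PLA2G12A, PLA2G12B, PLA2G6 and PLA2G15 held under all alternatives run, with differences of 0.08 to 0.62, 0.79 to 1.46, 0.15 to 0.67 and -0.67 to -0.0028. At -0.0028, without control array 1, PLA2G15 hardly differed from control. Robust variance and the 5 arrays as separate samples change only the test, so they could not turn a sign. For PLA2G12B the sign could not turn when 1 array was left out, as every knockdown array lay above both controls. LIPG ran from -0.91 to 2.51 over the fits that left out 1 array, and turned to -0.91 without siRNA 2 and -0.62 without control array 1. Over those fits the number of members higher under all remaining siRNAs was 1 to 3 and the number lower 0 to 1, which fewer arrays alone can shift. The 5-gene median was 0.08 to 0.62. Limma called 0 genes in every fit, with 86 to 707 genes (498 of 30079 when each probe set was fitted) at an unadjusted p under 0.05. With the labels' replicate number as a block, which leaves siRNA 3 without a partner, PLA2G12B stood at 0.79 and LIPG at 2.51 (unadjusted p of 0.00122, adjusted p = 0.540), and no call changed. The fits with a block, or with the 5 arrays as separate samples, counted the technical repeat of the control as a sample of its own. Their p-values may therefore be too small. Deviations of same-numbered arrays from their group means correlated by 0.10 for number 1 and -0.05 for number 2 over genes. With 2 control arrays these deviations mirror each other, so control array 1 with siRNA 2 gave 0.05. The numbers were not taken to pair the samples. PLA2G15 and LIPG gave no value in the fit limited to control gaps under 0.5. Signal over background was not in the values.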

Other observations

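Among the related genes, 3 more stood apart and were chosen after their values were seen. ANGPTL4, a secreted inhibitor of lipoprotein lipase and endothelial lipase, read -0.71 and -0.43 on control arrays 1 and 2 and 0.52, 0.03 and 0.00 under siRNAs 1, 2 and 3. Each knockdown array was above both controls, at 0.75 ± 0.29 (SD, n = 3 siRNAs) over their mean. CYP4F3, a hydroxylase of leukotriene B4, stood at 0.47, 2.40 and 2.98, in the same order over the siRNAs as PLA2G12B, an order not counted over all genes. CEL, the bile salt-stimulated lipase gene, stood at 4.42, 2.35 and -1.16, with opposite signs under siRNAs 1 and 3. None of the 3 passed the limma test, with unadjusted p-values of 0.142, 0.117 and 0.413.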
